A study of Mus musculus with 3 samples.

Results

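Polycomb repressive complex 2 (PRC2) and the DNA methyltransferases were followed through 9 genes, Ezh1, Ezh2, Eed, Suz12, Jarid2, Dnmt1, Dnmt3a, Dnmt3b and Uhrf1. The members were chosen by name, as the probe sets that the platform annotation assigns to 1 of these genes alone, which gave 28 of the 45037 probe sets on the array and 9 of the 18193 genes it names singly. The brightest probe set of a gene, by mean signal over the arrays, gave its main value, and its other probe sets served as a check. Of the 28 probe sets, 25 lay above a floor of 40 on at least 1 array, and all 9 genes were measured in every comparison.

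The arrays hold RNA of muscle stem cells (MuSC, satellite cells) of wildtype C57BL/6 mice 8 weeks of age, sorted from digested hindlimb muscle as CD34+ α7 integrin+ cells after removal of cells with CD45, CD11b, CD31 or Sca1. Fresh cells were used directly after isolation, −OSM cells after 3 days of culture in 10% FBS, and +OSM cells after the same culture with 100 ng/mL Oncostatin M (OSM), a cytokine of the interleukin-6 family. There was 1 array for each condition, so the arrays allow no test, differences stand without a replicate to check them, and precision is limited by how few arrays there are. How many animals gave each RNA is not stated.

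PRC2 places methyl groups on lysine 27 of histone H3, a mark of repressed genes. Its catalytic subunit is either Ezh2, which is typical of dividing cells, or Ezh1, a weaker methyltransferase that persists in cells that have left the cycle, and Eed and Suz12 are needed with either. In satellite cells Ezh2 is known to be required for expansion. DNA methylation is copied at replication by Dnmt1, which Uhrf1 recruits to hemimethylated DNA, whereas Dnmt3a and Dnmt3b set new methylation.

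Signals of the authors' MAS5 processing are on a linear scale. A signal of a probe set is compared here only with the same probe set on another array, since probe sets differ in brightness for equal RNA. Log2 ratios were taken after raising lower signals to the floor of 40, a gene counted as higher or lower at 2-fold, and "at least" is put before a fold whose dimmer signal was below the floor. Over genes with a pair of probe sets above the floor on all arrays, the log2 ratios of the brightest and the second probe set differed by a median of 0.45 in −OSM cells over fresh cells and by more than 1.35 in the top 10% of 4083 genes. In +OSM cells over −OSM cells these values were 0.32 and 0.86. This spread covers differences between probes, not between cultures or animals.

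The catalytic subunits parted in culture. Ezh1 had signals of 573 in fresh cells, 150 in −OSM cells and 195 in +OSM cells. The fresh array was the high one, and both cultures lay well below it. Its signal was 3.82-fold lower in −OSM cells than in fresh cells, and 7.30% of the 12755 measured genes had a lower ratio. Ezh2, read from its only probe set, had 525, 629 and 617 in the same order, so that the arrays lay close to each other and −OSM cells was 1.20-fold above fresh cells. The log2 ratio of Ezh1 to Ezh2 was therefore 2.19 units lower in −OSM cells than in fresh cells, given as a shift of -2.19, or 4.58-fold, and any common scaling factor of an array cancels in it.

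The size of this shift depended on the Ezh1 probe set. The second Ezh1 probe set (1418290_a_at) was dim, with signals of 83, 59 and 43 in fresh cells, −OSM cells and +OSM cells, and gave a shift of -0.75. A further probe set passed the floor on the fresh array alone, at 55, and the last was below it on all arrays. Both measured check probe sets thus had their highest signal in fresh cells, as the brightest one (1449023_a_at) did. The second was 1.41-fold lower in −OSM cells than in fresh cells, and the further one at least 1.38-fold, which sets no upper limit.

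**Figure D1:**
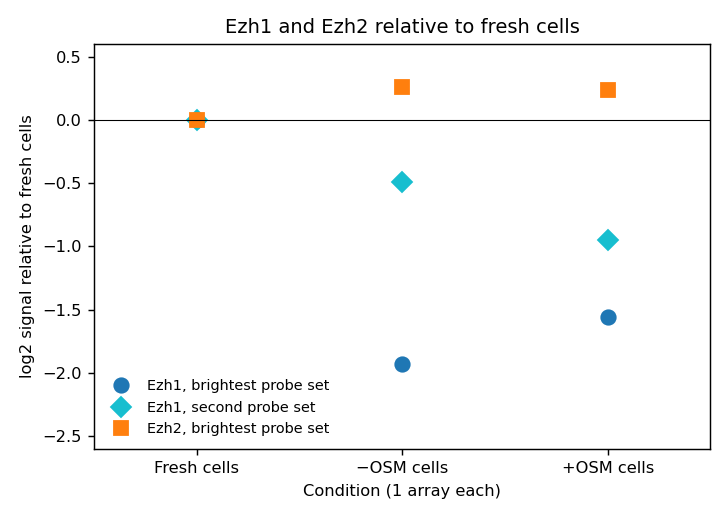
Log2 signal relative to fresh cells, on the vertical axis, of the Ezh1 and Ezh2 probe sets above the floor on all arrays, by condition, with 1 array each. The brightest Ezh1 probe set lies at -1.93 in −OSM cells and -1.56 in +OSM cells and the second at -0.49 and -0.95, whereas Ezh2 lies at 0.26 and 0.23.

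With OSM the balance of Ezh1 and Ezh2 stayed near that of the other culture. Ezh1 was 1.30-fold higher in +OSM cells than in −OSM cells on the brightest probe set and 1.37-fold lower on the second, and Ezh2 differed by 1.02-fold. The shift of the log2 ratio was 0.41 on the brightest probe set and -0.43 on the second, so it had no settled direction. +OSM cells remained below fresh cells, with a shift of -1.79 on the brightest probe set and -1.18 on the second.

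The noncatalytic core subunits differed little between the arrays. Eed, which binds the methylated histone tail, had signals of 955 in fresh cells, 890 in −OSM cells and 897 in +OSM cells. Suz12, the scaffold of the complex, had 755, 608 and 721 on its brightest probe set. The 5 other Suz12 probe sets also had lower signals in −OSM cells than in fresh cells. Of these 1420020_at, at 69 and 31, was at least 1.73-fold lower, and the rest ranged from 1.08-fold to 1.98-fold. None of the 6 reached 2-fold after the floor in any comparison, which for 1420020_at sets no upper limit in −OSM cells. For both genes the sign of the ratio in culture depended on the scaling of the arrays. With arrays centred on their median signal, the log2 ratio in −OSM cells over fresh cells was 0.46 for Eed and 0.25 for Suz12, against -0.10 and -0.31 with the deposited scaling.

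Jarid2, an accessory subunit that helps bring PRC2 to chromatin, ran with the brightest Ezh1 probe set. The second Ezh1 probe set, at 83, 59 and 43, was instead lowest in +OSM cells. The brightest Jarid2 probe set had signals of 510 in fresh cells, 128 in −OSM cells and 178 in +OSM cells. The other probe sets had 572, 73 and 100 (1422698_s_at) and 409, 41 and 71 (1450710_at). On all 3 the fresh array was highest and −OSM cells lowest. The fold between fresh cells and −OSM cells was 3.98, 7.84 and 9.98 in this order of probe sets, so the brightest gave the smallest distance. +OSM cells lay 1.39-fold, 1.37-fold and 1.73-fold above −OSM cells. All 3 probe sets were thus at least 2-fold lower in both cultures than in fresh cells, and this held for Jarid2 with centred arrays too in −OSM cells, where the brightest gave a log2 ratio of -1.44.

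The de novo DNA methyltransferases were also lower in culture. Dnmt3a had signals of 467 in fresh cells, 197 in −OSM cells and 180 in +OSM cells on its brightest probe set (1423063_at), a difference of 2.37-fold between fresh cells and −OSM cells. Of its 4 other probe sets 3 were lower in −OSM cells and none was past 2-fold after the floor. Among them 1423064_at, at 47 and 19, is known only to be at least 1.18-fold lower. In +OSM cells 1460324_at was 2.19-fold and 1423065_at at least 2.3-fold below fresh cells. In the same comparison 1423066_at was equal at 63 and 1423064_at at least 1.18-fold lower. The second (1460324_at) had 204, 150 and 93, so that the array with OSM was the lowest there. Dnmt3a was the lower of the cultures with OSM on the 4 probe sets measured in that comparison. Of these 1423065_at, at 62 and 32, was at least 1.55-fold lower, and the rest ranged from 1.09-fold to 1.61-fold. With arrays centred on their median the brightest probe set gave 0.04 for this log2 ratio, beside a median of 0.15 for all genes.

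Dnmt3b had signals of 173 in fresh cells, 18 in −OSM cells and 56 in +OSM cells. The −OSM cells signal was below the floor, so Dnmt3b was at least 4.33-fold lower there than in fresh cells, and +OSM cells was at least 1.40-fold above −OSM cells. Its second probe set (1418351_a_at) was above the floor in fresh cells only, at 63 against 39 in each culture. Its fold depended on the floor. With a floor of 100 it was lower than fresh cells in both cultures by a log2 ratio of at least 0.79, given as -0.79, which no longer reached 2-fold, and with a floor of 20 the log2 ratio in +OSM cells over −OSM cells was 1.49 in place of 0.49.

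The maintenance genes did not follow the de novo enzymes. Dnmt1 had signals of 378 in fresh cells, 354 in −OSM cells and 391 in +OSM cells on its brightest probe set (1435122_x_at), whose suffix marks probes that may bind other transcripts. Its other probe sets had 239, 366 and 322 (1422946_a_at) and 87, 171 and 200 (1447877_x_at). On these the fresh array was the lowest, and −OSM cells was 1.53-fold and 1.97-fold higher, so the probe sets of Dnmt1 disagreed on fresh cells. Uhrf1 had 112, 190 and 137, with fresh cells lowest and −OSM cells 1.70-fold above it, and its second probe set was below the floor on all arrays. For Uhrf1 the log2 ratio of 0.76 was 1.32 with centred arrays and 1.17 after quantile normalization, both past 2-fold.

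**Figure D2:**
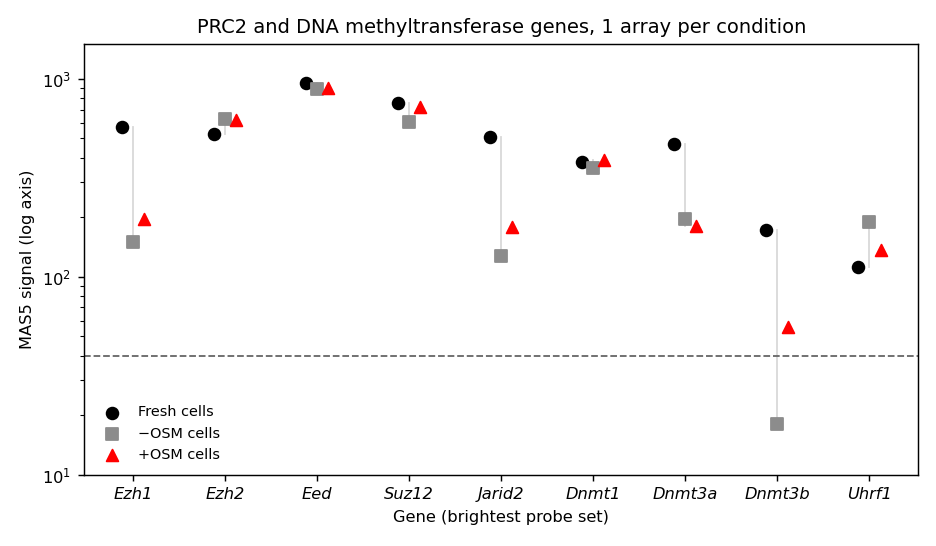
Signals of the brightest probe set of the 9 genes in MAS5 units, plotted with a log axis by condition (black circles, fresh cells; gray squares, −OSM cells; red triangles, +OSM cells). Each symbol is 1 array, and the dashed line marks the floor of 40. Ezh1, Jarid2, Dnmt3a and Dnmt3b are highest in fresh cells, at 573, 510, 467 and 173.

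Counted together, 4 of the 9 genes (Ezh1, Jarid2, Dnmt3a and Dnmt3b) were at least 2-fold lower in −OSM cells than in fresh cells and 0 were higher, where 20.4% of all measured genes were lower and 15.0% higher. The median log2 ratio was -0.31 over the 9 genes and -0.14 over all measured genes, and it was 0.25 with centred arrays, where the median of all genes was 0.37. On their brightest probe sets Ezh1 and Jarid2 had ratios beyond the 1.35 that the probe set spread reached in its top 10%, and Dnmt3a, at -1.25, did not. Jarid2 was beyond it on its 3 probe sets, but Ezh1 was not on its second, at -0.49. Dnmt3b fell by at least 2.11 on its brightest probe set and by at least 0.66 on its second, and with a signal below the floor it was not among the genes that gave the spread. The other 5 genes lay between -0.31 and 0.76.

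The same 4 genes were at least 2-fold lower in +OSM cells than in fresh cells, with log2 ratios of -1.56 for Ezh1, -1.52 for Jarid2, -1.38 for Dnmt3a and -1.63 for Dnmt3b. Here 17.2% of measured genes were lower and 13.8% higher. Both comparisons use the fresh array, so the second is no repeat of the first. The direction of these 4 genes held under each scaling, but centring moved the all-gene median of +OSM cells over fresh cells from -0.14 to 0.57 and left 0 of them past 2-fold. With centred arrays 8.23% of measured genes were at least 2-fold lower in that comparison. Relative to that median of 0.57 the log2 ratio in +OSM cells over fresh cells was -1.21 for Dnmt3a and -1.47 for Dnmt3b. In −OSM cells over fresh cells centring left Dnmt3a, at -0.69, within 2-fold, which was -1.05 relative to the median of all genes.

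In +OSM cells over −OSM cells, 0 of the 9 genes were at least 2-fold higher or lower, where 6.07% of measured genes were higher and 4.39% lower. Dnmt3b is known only by a lower limit here, a log2 ratio of at least 0.49, and was past 2-fold with a floor of 20, so its place is not settled. Among the other 8 genes, whose signals were above the floor in both cultures, the highest ratio was 0.48 for Jarid2 and the lowest -0.47 for Uhrf1, inside the 0.86 of the probe set spread. The median of the 9 was 0.14 against -0.01 for all measured genes. With 1 array each, a difference of the size seen for Jarid2 or Uhrf1 can be neither shown nor dismissed.

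**Figure D3:**
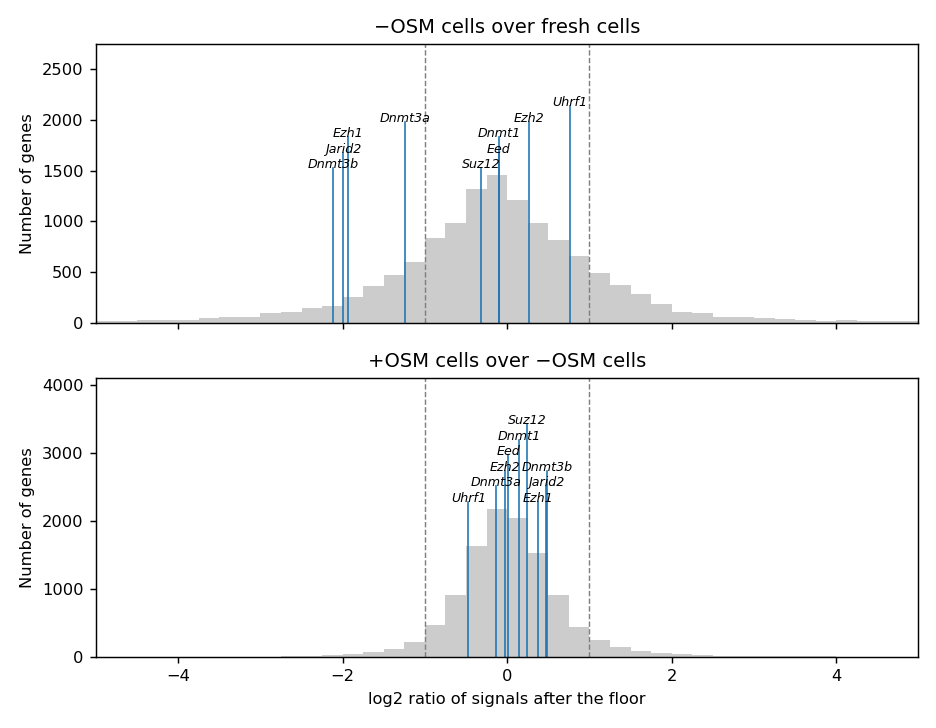
Number of genes by log2 ratio of signals after the floor, in gray bars for all measured genes, with the 9 genes as labelled blue lines and dashed lines at 2-fold. In the upper panel, −OSM cells over fresh cells, 4 of the 9 lie left of the lower dashed line, and in the lower panel, +OSM cells over −OSM cells, they lie between -0.47 and 0.49, with Dnmt3b drawn at the lower limit of its ratio there and at the smallest fall the floor allows in the upper panel. Ratios beyond 5 units are not drawn.

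**Figure D4:**
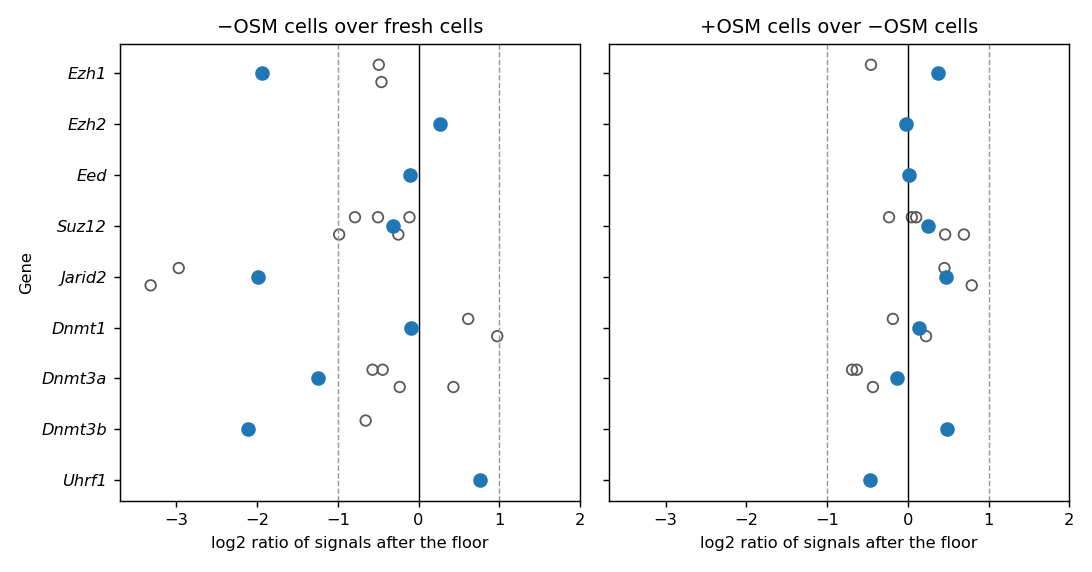
Log2 ratio of signals after the floor for each probe set of the 9 genes, with the brightest as filled blue circles and the others as open circles, for −OSM cells over fresh cells on the left and +OSM cells over −OSM cells on the right. Of the 16 other probe sets measured on the left 13 lie on the same side of 0 as the brightest of their gene, and the 2 open circles of Dnmt1 lie opposite. On the right 10 of 13 do so.

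Other measures also differed between the fresh array and the cultures. Beside the lower signals of Ezh1, Jarid2, Dnmt3a and Dnmt3b in both cultures stand the markers of other cells, whose part in the result was not tested. The summed signal of 5 measured fibro-adipogenic markers of 6 listed was 14105 in fresh cells, 134 in −OSM cells and 624 in +OSM cells, of which the matrix gene Dcn made 12179, 32 and 373, and 5, 1 and 4 of these markers were above the floor. The sum of 3 measured Schwann cell markers of 5 was 4287, 104 and 211, that of 6 endothelial markers 1140, 93 and 87, that of 7 leukocyte markers 1343, 165 and 200, and that of 5 pericyte and smooth muscle markers 9395, 19252 and 13995. Acta2, an actin of smooth muscle, made 6543, 19053 and 13114 of the last sum, and the other 4 markers of that list (Rgs5, Myh11, Pdgfrb and Kcnj8) were at least 2-fold lower in −OSM cells than in fresh cells. In +OSM cells Rgs5, Myh11 and Kcnj8 were at least 2-fold lower than in fresh cells, and Pdgfrb, at 661, 139 and 738, was not. In the same order of arrays 3, 1 and 3 of the Schwann cell, 3, 1 and 0 of the endothelial, 3, 1 and 1 of the leukocyte and 5, 2 and 4 of the pericyte and smooth muscle markers were above the floor. The gated surface proteins' genes Ptprc (CD45) and Pecam1 (CD31) were below the floor on all arrays, and no marker listed was at 0. The sum of 9 satellite cell markers was 34549, 8435 and 10252. They were above the floor at 9 of 9 in fresh cells and at 7 of 9 in each culture, where Cd34 and Calcr were below it. Of the 9, 6 were at least 2-fold lower in each culture than in fresh cells, among them Pax7 at 4006, 282 and 431. The 2 that were higher were Myod1 at 936, 3820 and 4148 and Itga7 at 499, 1808 and 1238. Myf5, at 7016, 561 and 1855, was the 1 marker of this list past 2-fold with OSM. Of the other lists Dcn, Col1a1, Csf1r, Pdgfrb and Kcnj8 were past 2-fold in +OSM cells over −OSM cells, all of them higher. RNA integrity, read as the ratio of 3′ over 5′ signal of control probe sets, gave 2.35, 1.40 and 1.41 for β-actin. For Gapdh it gave 1.36, 1.14 and 0.9, so the gap of the fresh array was smaller there. The part of RNA integrity was not tested either. In bulk RNA, fewer cells that express a gene and less of its RNA per cell cannot be told apart.

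The promoter windows of the 9 genes, taken from RefSeq for GRCm38.p6, hold 250 bases before and 50 after each annotated start. All 9 genes matched, with 15 windows, whose median CpG count was 24 against 7 in 32851 windows of the table. Letters of the E2F site, which factors of the cell cycle bind, were searched as TTTCCCGC, TTTCGCGC, TTTGCCGC and TTTGGCGC on both strands. They were found in 4 of the 15 windows, in 2.26% of all windows and in 5.15% of windows with at least 20 CpG, and in 7 of 18 windows of listed S phase genes. The genes that hold them are Ezh2, Suz12, Dnmt1 and Uhrf1, though Dnmt1 and Uhrf1 also have windows at other annotated starts that hold none. These genes were all within 2-fold on their brightest probe sets with the deposited scaling. The windows of Ezh1, Jarid2, Dnmt3a and Dnmt3b, the genes that were lower in culture, hold none, and neither does that of Eed. The division rests on the deposited scaling and the brightest probe sets. Uhrf1 passed 2-fold in −OSM cells over fresh cells under both other scalings, and 1 Dnmt1 probe set (1447877_x_at) was 2.30-fold higher in +OSM cells than in fresh cells. The matches are shown for this division, 5′ to 3′ on the strand of the gene, with the matched letters in capitals.
Ezh2, chr6:47595010-47595037, minus strand, from base 4 after the start: ggttgctgcgTTTGGCGCtcggtccggt
Suz12, chr11:79992877-79992904, plus strand, 219 bases before the start: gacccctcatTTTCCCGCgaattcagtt
Dnmt1, chr9:20952825-20952852, minus strand, 219 bases before the start: gtttccgcgcGCGCGAAAaagccggggt
Dnmt1, chr9:20952574-20952600, minus strand, from base 34 after the start: cggggcagcgTTTGGCGCgggctgtgc
Uhrf1, chr17:56304118-56304145, plus strand, 185 bases before the start: ccgagtcgggTTTCGCGCgcccaggcgt
A match is a description of letters and no site was measured. The CHR element TTTGAA was in 4 of 15 windows, those of Eed, Suz12, Dnmt1 and Dnmt3b, against 17.9% of all windows and 6.99% of those with at least 20 CpG. The STAT site TTCNNNGAA, of the factors through which OSM receptors signal, was in 0 of 15 windows, against 8.30% and 4.61%, which says only that these letters are not in these windows.

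Other subunits and partners of PRC2 had more genes on the high side in −OSM cells. Of 8 measured, 4 were at least 2-fold higher in −OSM cells than in fresh cells and 1 was lower, with a median log2 ratio of 0.70. Of all measured genes 15.0% were higher and 20.4% lower in that comparison. In +OSM cells over fresh cells 2 of the 8 were higher and 1 lower, with a median of 0.21. The shares of all measured genes there were 13.8% higher and 17.2% lower. Rbbp4, a histone-binding core subunit that PRC2 shares with other complexes, had signals of 3679 in fresh cells, 11765 in −OSM cells and 8067 in +OSM cells. Mtf2, a Polycomb-like subunit that binds CpG-rich DNA, had 353, 768 and 667, and Lcor, whose locus also encodes a PRC2 partner, had 349, 1237 and 906. These genes were highest in −OSM cells, opposite to Jarid2. The other gene higher in −OSM cells was Lcorl, at 105, 228 and 129. The lower gene was Phf19, at 121, 51 and 7, and was named after its value was seen. Which transcripts of the Lcor and Lcorl loci these probe sets read was not checked. In +OSM cells over −OSM cells 0 of 8 passed 2-fold, and the median was -0.28. Of all measured genes 6.07% were higher and 4.39% lower there. Of the H3K27 demethylases, which remove the mark, Kdm6b had 2996, 242 and 228 and Kdm6a 843, 907 and 613. Kdm6b was thus 12.4-fold lower in −OSM cells than in fresh cells.

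PRC1 is the complex that binds the mark and modifies histone H2A. Of its 18 measured genes 3 were at least 2-fold lower in −OSM cells than in fresh cells, against 20.4% of all measured genes. Another 2 were higher, against 15.0%, and the median was -0.09. The lower genes were Cbx6 and Cbx7, chromodomain subunits that read the mark, with 1106, 156 and 217 and with 226, 46 and 79, and Ring1, a ubiquitin ligase, with 298, 122 and 114. Pcgf3, a subunit of variant complexes, was higher in −OSM cells at 481, 1854 and 1267, as was L3mbtl2 at 24, 112 and 124, named after its value was seen. None of 17 measured passed 2-fold in +OSM cells over −OSM cells, where 6.07% of all measured genes were higher and 4.39% lower.

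Among genes around DNA methylation, the TET and demethylation list had 3 of 5 measured genes lower in −OSM cells than in fresh cells and 1 higher. Beside this list and the next 2 stand the shares of all measured genes in that comparison, 20.4% lower and 15.0% higher. Tet2, which oxidizes methylcytosine, had signals of 1630, 213 and 385, and its relative Tet1, named after its value was seen, had 189, 50 and 41. Gadd45b, a stress gene linked to demethylation, had 3560, 992 and 1819, and its relatives Gadd45g and Gadd45a had 1213, 3612 and 3358 and 5082, 6117 and 3638. Both Tet2 and Gadd45b were lowest in −OSM cells, while Gadd45g was lowest in fresh cells. Of 6 measured partners of the methyltransferases 1 was higher and 1 lower. Hells, a helicase needed for DNA methylation, had 48, 289 and 169 and ran as Uhrf1 did, highest in −OSM cells, and Trdmt1, a methyltransferase of transfer RNA, had 284, 139 and 183. Within 2-fold were the deubiquitinase Usp7 at 1586, 936 and 1297, the Uhrf1 relative Uhrf2 at 497, 396 and 363 and Ahcy, which clears the by-product of methylation, at 1555, 1492 and 2283. Of 7 methyl-CpG readers 3 were lower, with Zbtb4 at 990, 177 and 257, Mbd2 at 1443, 642 and 919 and Mbd4, named after its value was seen, at 101, 27 and 32, and 1, Zbtb38, was higher at 123, 281 and 260. Zbtb33, or Kaiso, at 515, 753 and 637 and Mbd1 at 253, 245 and 374 were within 2-fold. With OSM 0 genes of these 3 lists passed 2-fold, or 2 of the TET list with centred arrays. Of all measured genes 6.07% were higher and 4.39% lower with OSM, or 8.35% and 3.24% with centred arrays.

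For comparison, 20 measured lysine methyltransferases of other histone sites had 2 genes lower in −OSM cells, against 20.4% of all measured genes. Another 2 were higher, against 15.0%, and the median was -0.25. The lower genes were Kmt2a, of the Trithorax group that counters Polycomb, with 703, 202 and 233, and Kmt5b, with 535, 173 and 300. The higher ones were Kmt5a, which acts in mitosis, with 165, 610 and 483, and Smyd1, a muscle gene, with 32, 1796 and 1244. Dot1l, which methylates the core of histone H3, was within 2-fold at 372, 282 and 157 in that comparison. S phase genes were higher in 6 of 18 in −OSM cells and lower in 0, with a median of 0.59, and 0 of 18 passed 2-fold with OSM. Here too 15.0% of all measured genes were higher and 20.4% lower, and with OSM 6.07% and 4.39%. Rrm2, a subunit of ribonucleotide reductase, had 441, 6119 and 7369, Ccna2, or cyclin A2, had 119, 746 and 459, and Top2a, which untangles DNA, had 166, 991 and 828. These were named for their large ratios, as was Rrm1, the other subunit of that enzyme, at 334, 1248 and 730. The other 12 genes of the list were within 2-fold, among them the replication clamp Pcna at 2990, 2992 and 2761, named after its value was seen. Ezh2, at a log2 ratio of 0.26, lay below the median of the list, 0.59, and above that of all measured genes, -0.14. Of 11 E2F factors and pocket proteins, 3 were higher and 2 lower, beside the same shares of all measured genes. E2f8, a repressor of the family, had 67, 2939 and 1107, and Rb1, the retinoblastoma gene, had 756, 2929 and 2182, while E2f7, named after its value was seen, had 33, 95 and 86. E2f5 had 412, 119 and 156 and Rbl2, or p130, a pocket protein of resting cells, had 320, 110 and 172. Both ran as the brightest Ezh1 probe set did, but not as the second. E2f8 was the 1 gene of this list past 2-fold with OSM, at a log2 ratio of -1.41. The medians of the PRC1 list, the methyltransferase partners and the other lysine methyltransferases in −OSM cells over fresh cells turned positive with centred arrays, at 0.47, 0.30 and 0.30, and that of the readers did so at 0.51, whereas those of the other PRC2 subunits, the S phase genes, the E2F list, the demethylases and the TET list kept their sign under both scalings. The median of all measured genes also turned positive with centred arrays, from -0.14 to 0.37.

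**Figure D5:**
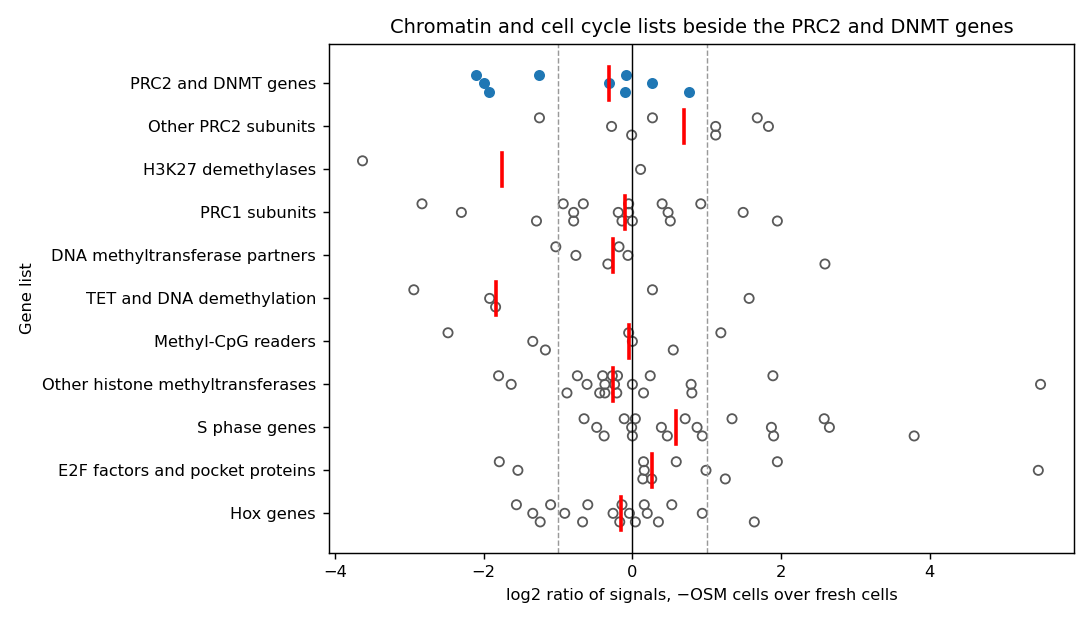
Log2 ratio of signals in −OSM cells over fresh cells for each measured gene of 11 lists, with the 9 genes as filled blue circles, other genes as open circles, the median of each list as a red bar and dashed lines at 2-fold. The median is -0.31 for the PRC2 and DNMT genes, 0.70 for other PRC2 subunits, -1.84 for the TET list and 0.59 for S phase genes.

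The genes most like some members were found by the distance over 2 log2 ratios, −OSM cells over fresh cells and +OSM cells over −OSM cells, among genes above the floor on all arrays and at 200 or more on 1. Nearest to Ezh1 were Dock1 (694, 181 and 240 in fresh cells, −OSM cells and +OSM cells), Serinc5 and Ttc23, at distances of 0.03 to 0.06, and 63 of 7398 genes lay within 0.25. Nearest to Ezh2 were Znrf1, Tsen34 and Trp53bp1, with 477 genes within 0.25. Nearest to Dnmt1 were D230025D16Rik, Tmx1 and Zfp507. Nearest to Uhrf1 were Asxl1, a Polycomb group gene (443, 752 and 538), Atp5b and Prkag1. With 3 arrays many genes share such a pattern.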

How the data were processed

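RNA of the 3 MuSC samples was amplified with 3′ IVT Express reagents and hybridized to Affymetrix MOE_430_2 arrays, and the authors ran MAS5 on the scans (version not stated). The deposited values are MAS5 signal intensity on a linear scale in whole numbers, scaled by the authors to a common trimmed mean (198.4 to 198.7 here, 2% trimmed at each end). The median signal was 53, 36 and 32 in fresh cells, −OSM cells and +OSM cells. MAS5 detection calls were not used here, and 64 control probe sets were left out.

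Log2 ratios were taken from these values with pandas 2.3.3 and numpy 2.4.6 under Python 3.11.15, and the steps were tested on simulated data. Gene names came from the platform annotation, with symbols looked up by identifier (34741 of 34945 probe sets found, 0 symbols changed). Conditions were taken from the labels. The 9 genes, the lists and the rule for named genes were chosen with earlier results of these data known. The rule names all members, from each list up to 4 genes with the largest ratios in −OSM cells over fresh cells and up to 2 in +OSM cells over −OSM cells, at a signal of 200 or more on 1 array, and the 3 genes nearest to Ezh1, Ezh2, Dnmt1 and Uhrf1. Alternatives were the scaling, the floor, the probe set and the fold threshold. The use of probe sets not ending in _s_at or _x_at was added after the data were seen.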

Additional observations from a re-analysis of the deposited data

How the results depend on the processing

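No paired analysis was possible because each condition has 1 array, and for the same reason no replicate could be left out. The shift of the log2 Ezh1 to Ezh2 ratio kept its sign in −OSM cells over fresh cells and in +OSM cells over fresh cells under every alternative run. With the median over the probe sets of a gene it was -0.75 and -1.18, and with probe sets ending in _at alone -0.72 and -0.69. The median values are those of the second Ezh1 probe set. It was above the floor on all arrays and had a smaller shift than the brightest. The _at values rest on an Ezh1 probe set below the floor in both cultures, so they are the smallest shifts the floor allows. That probe set also enters the median, so the median shift could be larger without the floor. Of the 9 genes, 2 were at least 2-fold lower in −OSM cells than in fresh cells with the median over probe sets, in place of 4. Of all measured genes 18.6% were lower in that setting. With arrays centred on their median, 1 gene was higher in −OSM cells and 1 in +OSM cells, both over fresh cells, and 0 were lower in the latter. Of all measured genes 28.1% and 33.7% were higher in these comparisons, and 8.23% were lower in the latter. Quantile normalization gave 1 gene higher in −OSM cells over fresh cells, as did a threshold of 1.5-fold, and a threshold of 3-fold left 1 gene lower in +OSM cells over fresh cells. After quantile normalization 19.5% of all measured genes were higher in −OSM cells over fresh cells. No share of all genes was taken at the other thresholds. With a floor of 20, and with no filter and a floor of 1, 1 gene was higher in +OSM cells over −OSM cells. Of all genes 6.48% and 13.1% were higher with these floors. With a floor of 100, 3 genes in place of 4 were lower in each culture than in fresh cells, without Dnmt3b. Of all measured genes 18.4% were lower in −OSM cells and 14.5% in +OSM cells with that floor. Signals near the floor, as for Dnmt3b, limit what can be said, and the causes were not tested. Among all measured genes at least 2-fold apart in −OSM cells and fresh cells, 42.4% were higher in −OSM cells, against 70.2% with centred arrays and 53.4% after quantile normalization.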

Other observations

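Hox genes, classic targets of Polycomb repression, were read as a list beside the complex. Of 33 with a probe set of their own, 18 were measured in −OSM cells over fresh cells, 4 of these were at least 2-fold lower and 1 was higher, with a median log2 ratio of -0.15 against -0.14 for all measured genes. Of all measured genes 20.4% were lower and 15.0% higher in that comparison. The signal of Hoxc9 was 387 in fresh cells, 153 in −OSM cells and 195 in +OSM cells, and that of Hoxa5 was 270, 126 and 110. Hoxc8 had 255, 136 and 248 and Hoxd8 had 215, 142 and 232, so that both were lowest in −OSM cells and alike on the other arrays. Hoxa7, higher in −OSM cells, had 56, 174 and 87, and was named after its value was seen. The other lower genes, also named after their values were seen, were Hoxc4 at 182, 77 and 82 and Hoxc5 at 121, 41 and 74. In +OSM cells over −OSM cells, 1 of 15 measured Hox genes was higher (Hoxd9, at 40, 41 and 82) and 1 was lower (Hoxa7), both at exactly 2-fold. Of all measured genes 6.07% were higher and 4.39% lower there. With centred arrays 3 of 17 Hox genes were higher and 1 lower, against 8.35% and 3.24% of all measured genes. After quantile normalization 0 were higher and 1 lower, against 5.14% and 4.34%. The median of the list in −OSM cells over fresh cells turned positive under the other scalings, to 0.28 with centred arrays and 0.06 after quantile normalization. The median of all measured genes did so too, to 0.37 and 0.1, so the list stayed slightly below it under each scaling.

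Germline genes that DNA methylation keeps silent in somatic cells were dim on all arrays. Of 15 listed, 1, Asz1, was above the floor on an array, with signals of 66 in fresh cells, 71 in −OSM cells and 33 in +OSM cells, and was named after its value was seen. The other 14 lay at or below the floor on every array, where the array gives no order.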
